A study of Mus musculus with 18 samples.

Results

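The genes described here encode the enzymes that carry pyruvate into the mitochondrial citrate (TCA) cycle, the cycle enzymes themselves, the malate-aspartate shuttle with neighbouring steps, and the enzymes of branched-chain amino acid and ketone body oxidation. They were taken by gene symbol from a fixed list of 38 genes, drawn up with earlier results of these data known. Of the 38 genes, 37 had a probe with that symbol in the platform annotation and 36 were tested, among 12881 tested genes in all. Got1 was not analysed here, and the 1 probe for Pdhx, the subunit that anchors Dld in the pyruvate dehydrogenase complex, was above the background limit on 0 of 18 arrays and was not tested.

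Each array held biotin-labelled cRNA made from total RNA of GFP-positive cells, sorted by flow cytometry from dissociated heart ventricles of Wt1GFPKI mouse embryos, in which GFP reports expression from the Wt1 locus. The study asked how the expression profile of these Wt1GFP-expressing cells, which it calls cardiomyocytes, changed over embryonic heart development. Every group carried the same genotype and sort by its labels, which differ in embryonic day, with 6 stages a day apart, the first at E11.5 and the last at E16.5, and 3 arrays at each stage. The labels do not say whether the 3 arrays of a stage came from separate litters or how many hearts were pooled, so the p-values rest on array-to-array spread alone, which may be technical. Cells negative for GFP and cells outside the ventricle were not analysed here.

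The values below are log2 intensities of Illumina bead arrays after background correction, on which a difference of 1 is a 2-fold change, and the limit of background lay at 5.02. No array counts molecules, so the number of arrays limits the precision. Where a gene had several tested probes, the brightest represents it. A gene was called changed when its Benjamini-Hochberg adjusted p in the limma fit over all tested probes was below 0.05. The standard deviation of the members' arrays within a stage had a median of 0.167 over the 36 genes (range 0.0785 to 0.342), against 0.171 over all tested genes. Arrays of the same stage correlated at 0.980 to 0.994 across probes, which are not independent replicates.

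Markers of other cell types moved over the same interval. All 15 tested cardiomyocyte markers were above background on every array. Of these, 3 rose between E11.5 and E16.5 (Tnni3 by 1.05, Tnni1 by 0.46 and Ryr2 by 0.41 on the log2 scale) and 2 fell (log2 changes of -2.48 for Myl7 and -1.97 for Nppa), and the summed intensity of the 15 was 104900 to 111700 at E16.5, against 106600 to 111800 at E11.5. Of 9 tested fibroblast and mesenchyme markers, 8 rose and 0 fell between these stages. The summed intensity of the 10 named ones was 5369 to 7987 at E16.5, against 703.4 to 1054 at E11.5. These 10 include Postn, which was at background throughout. Of 10 endothelial markers, 7 rose and 0 fell (2072 to 3801 at E16.5, against 986.1 to 1210 at E11.5). Of 7 tested epicardial markers, 1 rose and 5 fell, and Wt1 itself had no probe named in the annotation. The sum over the 8 named ones, with Lrrn4 not tested, was 282 to 304 at E16.5, against 496 to 597 at E11.5. Every sum here includes the offset of 16 that the background correction adds to each probe. Of 7 erythroid markers, 5 rose and 2 fell (7420 to 22430 at E16.5, against 265 to 575 at E11.5). Of 5 macrophage markers, 0 rose and 3 fell, with Ptprc at background. Of 6 smooth muscle and pericyte markers, 3 rose and 1 fell. At E14.5 Eif2s3y, a Y-linked gene, was above background on 0 of 3 arrays, while it was above background on 3 of 3 arrays at every other stage. Xist, transcribed from the inactive X chromosome, was above background on 3 of 3 arrays at E14.5. In sorted populations a change in the share of cells of a type and a change in RNA per cell cannot be told apart, and the part of these markers in the results below was not tested.

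Pyruvate dehydrogenase converts pyruvate, the end product of glycolysis, into acetyl-CoA inside the mitochondrion and is switched off by dedicated kinases and on by dedicated phosphatases. Acetyl-CoA from pyruvate, fatty acids, ketone bodies and branched-chain amino acids is oxidised in the citrate cycle, which supplies reducing equivalents to the respiratory chain. The adult heart relies mainly on oxidation of fatty acids and other mitochondrial fuels, whereas the embryonic heart draws more on glycolysis.

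Over the whole interval, E16.5 against E11.5, 16 of the 36 genes changed (44.4%), while 24.1% of all tested genes did. Among them 12 rose (33.3%, against 11.4% of all tested genes) and 4 fell (11.1%, against 12.7%). The 12 that rose were Pdha1, Pdhb, Dlat, Pdk2, Pdp1, Idh3g, Suclg1, Suclg2, Mdh1, Ivd, Pccb and Oxct1, and the 4 that fell were Pdk3, Idh3b, Me1 and Bdh1. The median log2 change of the 36 genes was 0.27 (quartiles 0.08 and 0.45, range -1.12 to 1.08), and that of all tested genes was -0.01 (quartiles -0.21 and 0.17). The change was above 0 in 29 of 36 members, and in 47.9% of all tested genes. The E16.5 arrays lay wholly above or wholly below the E11.5 arrays for 24 of 36 members (66.7%), and for 38.4% of all tested genes. These are descriptions of the list, not a test of it. Without the second E11.5 array 7 members rose in place of 12.

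**Figure D1:**
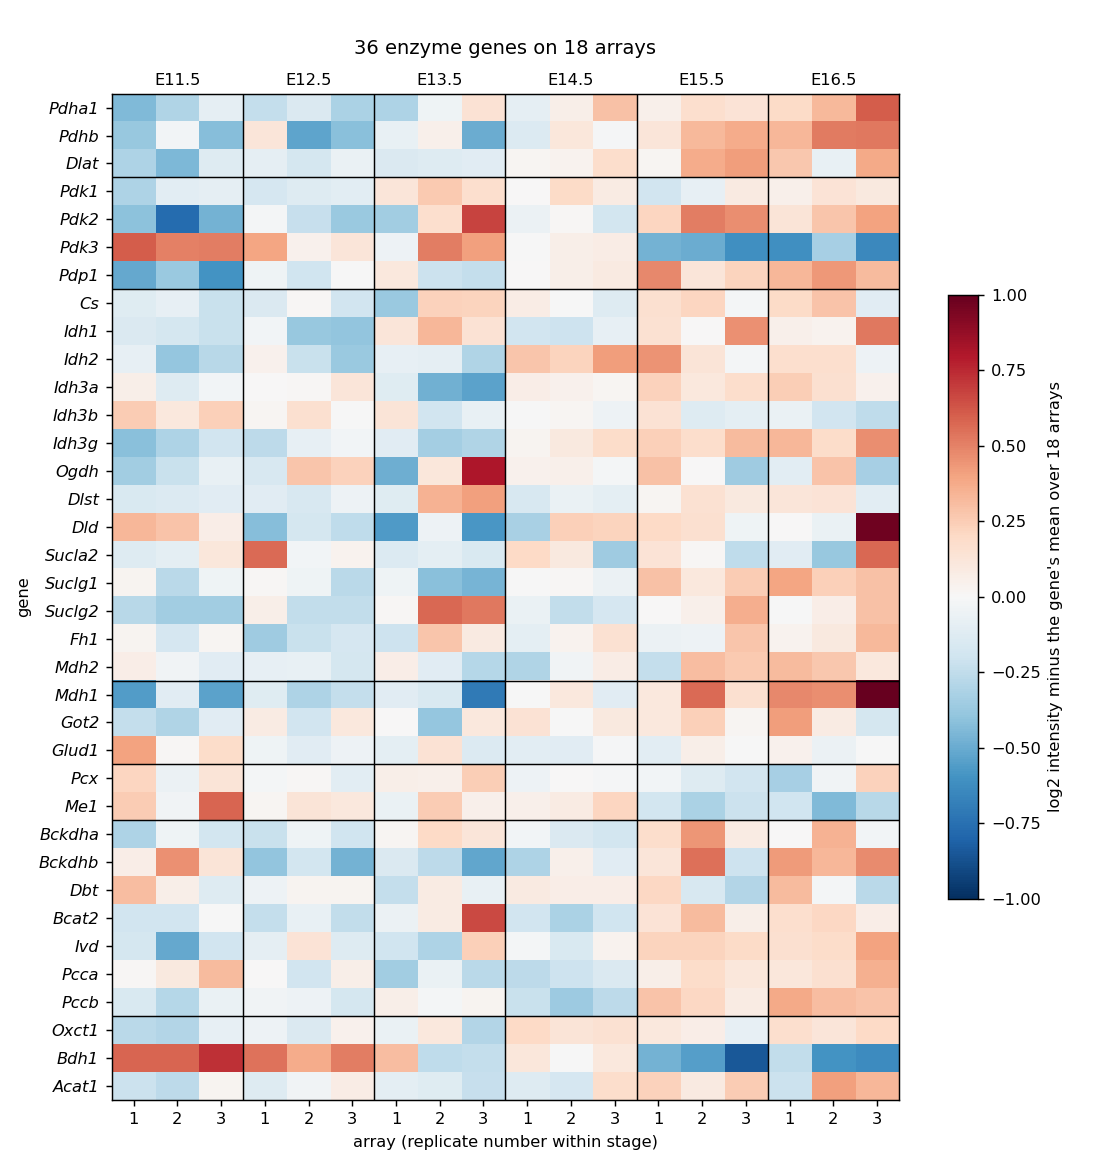
Heat map of the 36 tested genes (rows, ordered by role) on the 18 arrays (columns, E11.5 to E16.5, 3 arrays each), coloured by log2 intensity minus the gene's mean over the 18 arrays. Pdk3 and Bdh1 run from high to low across the stages, while Pdp1, Pdha1 and Mdh1 run the other way.

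**Figure D2:**
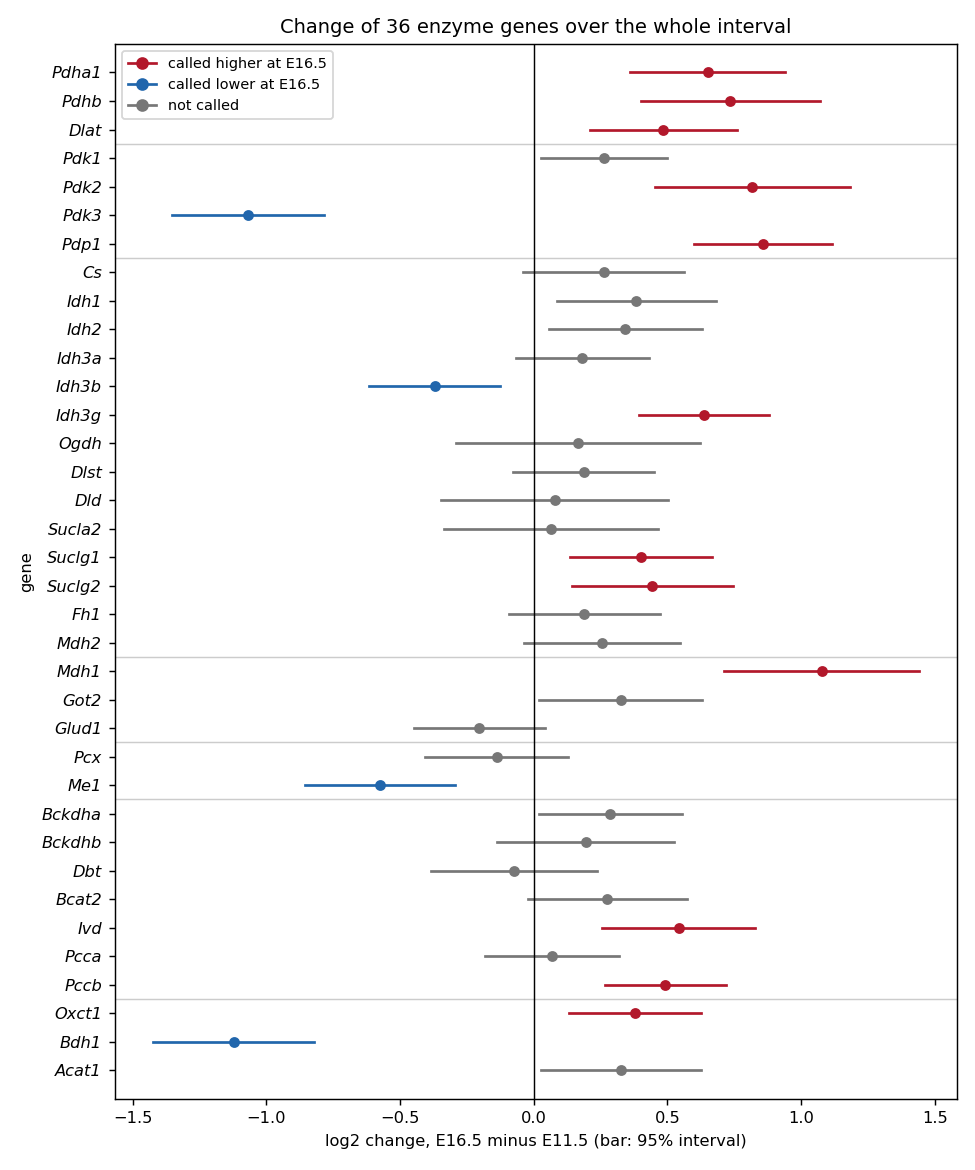
Log2 change between E16.5 and E11.5 (horizontal axis, E16.5 minus E11.5) of each of the 36 tested genes, with 95% confidence intervals, grouped by role and coloured by whether the gene rose, fell or was not called. The estimates run from -1.12 for Bdh1 to 1.08 for Mdh1.

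In the pyruvate dehydrogenase complex role all 3 tested genes rose, at 1.40 to 1.67 times the E11.5 level, while 11.4% of all tested genes rose. This role leaves out Dld, which is shared with other complexes and was not called, and Pdhx was not tested. Pdha1, the alpha subunit of the pyruvate-decarboxylating component, gave 11.34, 11.48 and 11.76 at E16.5, against 10.71, 10.85 and 11.06 at E11.5. All 3 later arrays lay above the earlier ones, a log2 change of 0.65 (SE 0.14, 1.57-fold higher, adjusted p = 0.00138). Its stage means climbed at each step, with 10.88 ± 0.18, 10.92 ± 0.09, 11.08 ± 0.23, 11.24 ± 0.20, 11.27 ± 0.06 and 11.53 ± 0.21 in order of embryonic day (SD, n = 3 each), although no single step of a day passed the test. Pdhb, the beta subunit of the same component, gave 10.22, 10.41 and 10.41 at E16.5, against 9.51, 9.86 and 9.46 at E11.5. The arrays did not overlap, and the log2 change was 0.74 (SE 0.16, adjusted p = 0.00168). One further Pdhb probe rose by 0.67 (adjusted p = 0.00804), while the other changed by 0.18 (adjusted p = 0.565). Dlat, the acetyltransferase that forms the core of the complex, gave 8.14, 7.80 and 8.25 at E16.5, against 7.57, 7.42 and 7.74 at E11.5. The lowest E16.5 array lay only just above the highest E11.5 array, and the log2 change of 0.48 (SE 0.13, adjusted p = 0.0106) lost its call without the second E11.5 array (adjusted p = 0.0690) or without the third E16.5 array (adjusted p = 0.0666).

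Dld, the dihydrolipoamide dehydrogenase that this complex shares with the oxoglutarate and branched-chain complexes, is counted among the citrate cycle genes here and was not called. It gave 7.09, 7.03 and 8.07 at E16.5, against 7.43, 7.38 and 7.16 at E11.5. Only the third E16.5 array was above the earlier stage, and the log2 change was 0.08 (95% confidence interval -0.35 to 0.50), or -0.26 without that array.

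The regulators of the complex moved in both directions, 2 up and 1 down of 4, against 11.4% and 12.7% of all tested genes. Pdk2 and Pdk3 are kinases that phosphorylate and inactivate the complex. Pdk2 gave 5.83, 5.97 and 6.10 at E16.5, against 5.29, 4.93 and 5.23 at E11.5. It was dim throughout, and 1 of the 3 E11.5 arrays was not above background, so the log2 change of 0.82 (SE 0.18, 1.76-fold higher, adjusted p = 0.00137) rests on 2 measured E11.5 arrays and 1 at background. Its size depended on the background correction, at 0.32 without correction and 0.47 with an offset of 50. Pdk3 gave 7.87, 8.14 and 7.84 at E16.5, against 9.08, 8.98 and 8.99 at E11.5. The E11.5 arrays were the tight group and the gap between stages was several times the spread, a log2 change of -1.07 (SE 0.14, 2.10-fold lower, adjusted p = 2.38e-06). Pdp1, the catalytic subunit of a phosphatase that reactivates the complex, gave 6.51, 6.62 and 6.50 at E16.5, against 5.67, 5.81 and 5.58 at E11.5. The log2 change was 0.86 (SE 0.12, 1.81-fold higher, adjusted p = 1.37e-05), while a further Pdp1 probe changed by 0.20 (adjusted p = 0.462). The Pdp1 change was 0.42 without background correction and 0.53 with the mean of both probes, and stayed called in each. Pdk1, another such kinase, was not called, with 9.25, 9.33 and 9.29 at E16.5, against 8.88, 9.09 and 9.10 at E11.5. Its arrays did not overlap either, and the log2 change was 0.26 (95% confidence interval 0.03 to 0.50, adjusted p = 0.117).

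Pdha1, Pdk3 and Idh3g are the X-linked genes among the members. Between E11.5 and E16.5 Pdha1 and Idh3g rose and Pdk3 fell, while 24.1% of all tested genes changed. The share among all X-linked genes was not computed. Eif2s3y was above background on 3 of 3 arrays at E16.5 and 3 of 3 at E11.5, and Xist on 2 of 3 at E16.5 and 3 of 3 at E11.5, and their part in these changes was not tested.

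The promoters of the complex's genes and of the kinases Pdk2 and Pdk3 are printed to show what lies upstream of genes that moved together and of a pair that moved apart. They are the 250 bases before the annotated start, 5′ to 3′ on the gene's strand, from RefSeq on GRCm38.p6: Pdha1 at chrX:160138431-160138680, Pdhb at chr14:8172993-8173242, Dlat at chr9:50659781-50660030, Pdk2 at chr11:95041372-95041621 (the first of its 2 starts) and Pdk3 at chrX:93832151-93832400, all on the minus strand. Capitals mark the CCAAT box (CCAAT, or ATTGG for the other strand), the GC box (GGGCGG or its complement) and the E box (CACGTG), and no marked motif overlaps another.
Pdha1: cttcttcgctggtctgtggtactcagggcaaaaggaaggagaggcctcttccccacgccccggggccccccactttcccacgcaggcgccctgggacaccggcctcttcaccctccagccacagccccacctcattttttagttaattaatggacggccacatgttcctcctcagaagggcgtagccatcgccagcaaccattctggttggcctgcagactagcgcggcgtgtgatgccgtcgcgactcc
Pdhb: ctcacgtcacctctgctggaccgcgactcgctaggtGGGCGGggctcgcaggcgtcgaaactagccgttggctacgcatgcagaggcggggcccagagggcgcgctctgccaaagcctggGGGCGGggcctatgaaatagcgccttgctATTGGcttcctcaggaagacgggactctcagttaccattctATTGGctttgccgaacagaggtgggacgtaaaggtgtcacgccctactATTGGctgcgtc
Dlat: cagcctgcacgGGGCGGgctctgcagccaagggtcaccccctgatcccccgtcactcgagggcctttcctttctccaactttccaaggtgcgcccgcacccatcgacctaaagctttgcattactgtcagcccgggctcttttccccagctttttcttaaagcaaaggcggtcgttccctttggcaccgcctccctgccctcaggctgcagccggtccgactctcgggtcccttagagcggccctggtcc
Pdk2: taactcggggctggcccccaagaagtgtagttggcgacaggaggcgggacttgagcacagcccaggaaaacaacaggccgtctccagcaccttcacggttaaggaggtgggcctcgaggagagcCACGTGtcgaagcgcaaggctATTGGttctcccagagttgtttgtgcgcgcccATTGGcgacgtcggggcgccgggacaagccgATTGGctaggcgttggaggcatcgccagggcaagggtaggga
Pdk3: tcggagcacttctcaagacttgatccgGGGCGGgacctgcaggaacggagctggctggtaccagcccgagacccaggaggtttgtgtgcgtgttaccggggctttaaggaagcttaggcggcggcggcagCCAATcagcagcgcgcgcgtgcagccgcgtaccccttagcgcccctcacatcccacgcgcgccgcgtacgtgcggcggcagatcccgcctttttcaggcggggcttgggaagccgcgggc

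Pdhb carried 3 CCAAT boxes and 2 GC boxes, Pdk2 carried 3 CCAAT boxes and 1 E box, Pdk3 carried 1 CCAAT box and 1 GC box, Dlat carried 1 GC box, and Pdha1 carried 0 of these motifs in this window. The kinase that rose and the kinase that fell thus both carried a CCAAT box. Upstream windows were at hand for 34 of the 38 genes, 48 windows in all. CCAAT lay on either strand of 22 of the 48 windows (45.8%), and of 33.9% of all 32851 windows of that length. GGGCGG lay in 22 of 48 (45.8%), against 32.7% of all windows, and CACGTG in 5 of 48 (10.4%), against 6.02%. A gene with several starts gives several windows, and the windows with CACGTG came from Ogdh, Pcx and Pdk2 only. AAGGTCA, the core site of the estrogen-related receptors, lay in 1 of 48 windows (2.08%), against 4.08% of all. That window was of Got1, whose expression was not analysed. The consensus site of NRF1 lay in 2 of 48 (4.17%), against 3.74%. A match of letters is a description and not a bound site.

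Of the 14 genes grouped here as citrate cycle genes, 3 rose, 1 fell and 10 were not called, with a median log2 change of 0.22. The group includes Idh1, whose enzyme is cytosolic, and the shared subunit Dld. Of all tested genes, 11.4% rose and 12.7% fell. The called citrate cycle genes belong to 2 enzymes. Idh3g is a regulatory subunit of the NAD-dependent isocitrate dehydrogenase, whose catalytic subunit is Idh3a. Idh3g gave 12.59, 12.45 and 12.73 at E16.5, against 11.84, 11.95 and 12.06 at E11.5. The log2 change was 0.64 (SE 0.12, adjusted p = 0.000289), and its further probe rose by 0.96 (adjusted p = 2.80e-05). Idh3b, another non-catalytic subunit of the same enzyme, was lower at E16.5, with 10.50, 10.37 and 10.31, against 10.81, 10.67 and 10.80 at E11.5. The arrays did not overlap, but the log2 change was small, -0.37 (SE 0.12, 1.29-fold lower, adjusted p = 0.0284). The Idh3b call was lost without the first E11.5 array (adjusted p = 0.0991), the third E11.5 array (0.0916), the second E16.5 array (0.0763) or the third E16.5 array (0.0934), and its further probe changed by -0.11 (adjusted p = 0.688), so that the mean of both probes changed by -0.24 (adjusted p = 0.0810). Idh3a itself gave 10.53, 10.45 and 10.33 at E16.5, against 10.35, 10.16 and 10.26 at E11.5, a log2 change of 0.18 that did not pass (adjusted p = 0.348). A dimmer Idh3a probe rose by 0.47 (adjusted p = 0.0440).

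Succinyl-CoA synthetase makes succinate from succinyl-CoA and pairs a common alpha subunit, Suclg1, with either a GTP-forming beta subunit, Suclg2, or an ATP-forming one, Sucla2. Suclg1 gave 12.33, 12.17 and 12.23 at E16.5, against 11.97, 11.67 and 11.90 at E11.5, a log2 change of 0.40 (SE 0.13, adjusted p = 0.0287). A further Suclg1 probe rose by 0.69 (adjusted p = 0.00469). Suclg2 gave 9.10, 9.17 and 9.39 at E16.5, against 8.82, 8.76 and 8.75 at E11.5, a log2 change of 0.44 (SE 0.15, adjusted p = 0.0324), and its further probe changed by 0.39 (adjusted p = 0.256). Both genes' E16.5 arrays were above all E11.5 arrays, but both calls were fragile. Suclg1 lost its call without the second E11.5 array (adjusted p = 0.157), the third E11.5 array (0.0534), the first E16.5 array (0.0943) or the third E16.5 array (0.0559). Suclg2 lost its call without any 1 of the E11.5 arrays (0.0624, 0.0850 and 0.0911) or without the second (0.0558) or the third (0.144) E16.5 array. Sucla2 was above background on 5 of 18 arrays, 1 of 3 at E16.5 and 1 of 3 at E11.5, and no fold is given for it.

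The other cycle genes were not called over the interval, and most had intervals that reached no further than about 0.6 on the log2 scale. Cs, citrate synthase, which joins acetyl-CoA to oxaloacetate, gave 11.01, 11.10 and 10.71 at E16.5, against 10.70, 10.74 and 10.60 at E11.5. The lowest later array was below the highest earlier one, and the log2 change was 0.26 (95% confidence interval -0.04 to 0.56). Mdh2, the mitochondrial malate dehydrogenase, changed by 0.26 (-0.04 to 0.55), and Fh1, fumarase, by 0.19 (-0.09 to 0.47). Ogdh and Dlst, the decarboxylase and succinyltransferase components of the oxoglutarate dehydrogenase complex, changed by 0.17 (-0.29 to 0.62) and 0.19 (-0.08 to 0.45). The wide Ogdh interval goes with a spread of 0.65 between its E13.5 arrays (SD, n = 3). Further Dlst probes changed in both directions, by 0.25, -0.26, -0.15 and -0.02, with none called. Idh2 and Idh1, the mitochondrial and cytosolic NADP-dependent isocitrate dehydrogenases, changed by 0.34 (0.06 to 0.63, adjusted p = 0.0915) and 0.38 (0.09 to 0.68, adjusted p = 0.0647), with intervals above 0 and adjusted p-values that missed the threshold.

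Mdh1, the cytosolic malate dehydrogenase that carries reducing equivalents into the malate-aspartate shuttle, had the highest positive change of the 36 genes. It gave 9.37, 9.35 and 9.97 at E16.5, against 8.33, 8.77 and 8.35 at E11.5. The third E16.5 array was the highest of all, the stages did not overlap, and the log2 change was 1.08 (SE 0.18, 2.11-fold higher, adjusted p = 6.52e-05). A further Mdh1 probe rose by 0.61 (adjusted p = 0.0287). Got2, the mitochondrial aspartate aminotransferase of the shuttle, gave 13.06, 12.72 and 12.46 at E16.5, against 12.40, 12.34 and 12.53 at E11.5. The third E16.5 array fell within the E11.5 values, and the log2 change of 0.32 (95% confidence interval 0.02 to 0.63, adjusted p = 0.139) was not called. Glud1, glutamate dehydrogenase, was not called either, with a log2 change of -0.20 (-0.45 to 0.04, adjusted p = 0.276). Its further probes changed by 0.14 (adjusted p = 0.658) and -0.11 (0.747).

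The 2 genes for pyruvate carboxylation and malate decarboxylation were dim. Me1, the cytosolic malic enzyme that makes NADPH from malate, gave 5.86, 5.61 and 5.77 at E16.5, against 6.31, 6.02 and 6.64 at E11.5. All E16.5 arrays were below all E11.5 arrays, a log2 change of -0.57 (SE 0.14, 1.49-fold lower, adjusted p = 0.00314), which was -0.28 without background correction and -0.38 with an offset of 50. Pcx, pyruvate carboxylase, which refills oxaloacetate, gave 4.89, 5.18 and 5.44 at E16.5, against 5.43, 5.16 and 5.34 at E11.5. Its values straddled the background limit, 1 E16.5 array lay below it, and the log2 change was -0.14 (-0.41 to 0.13).

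Among the 7 genes of branched-chain amino acid and propionate oxidation, 2 rose, 0 fell and 5 were not called. Their median log2 change was 0.28, and 11.4% of all tested genes rose and 12.7% fell. Ivd, the isovaleryl-CoA dehydrogenase of leucine breakdown, gave 8.96, 8.99 and 9.21 at E16.5, against 8.63, 8.29 and 8.62 at E11.5. The log2 change was 0.54 (SE 0.14, 1.46-fold higher, adjusted p = 0.00587), and the adjusted p was 0.0542 without the second E11.5 array, the lowest. Pccb, the beta subunit of propionyl-CoA carboxylase, gave 8.50, 8.43 and 8.41 at E16.5, against 7.97, 7.84 and 8.06 at E11.5. The arrays were tight and did not overlap (log2 change 0.49, SE 0.11, adjusted p = 0.00185), but a further, dimmer Pccb probe changed by 0.01 (adjusted p = 0.971), and the mean of both probes, a change of 0.25, was not called (adjusted p = 0.0888). Pcca, the alpha subunit of the same carboxylase, changed by 0.07 (95% confidence interval -0.18 to 0.32). Bcat2, the mitochondrial aminotransferase that starts the pathway, and Bckdha, Bckdhb and Dbt, subunits of the branched-chain ketoacid dehydrogenase, had log2 changes of 0.28, 0.29, 0.19 and -0.07, and none of the 4 was called.

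The 3 ketone body genes divided. Bdh1, which interconverts beta-hydroxybutyrate and acetoacetate, gave 6.64, 6.29 and 6.26 at E16.5, against 7.47, 7.47 and 7.62 at E11.5. The gap was far wider than the spread of either stage, and this was the most negative change of the 36 genes (log2 change -1.12, SE 0.15, 2.18-fold lower, adjusted p = 2.65e-06). Without background correction it was -0.70. Oxct1, the transferase that activates acetoacetate with succinyl-CoA and so commits ketone bodies to oxidation, gave 11.41, 11.36 and 11.44 at E16.5, against 10.98, 10.95 and 11.16 at E11.5. The log2 change of 0.38 (SE 0.12, 1.30-fold higher, adjusted p = 0.0255) lost its call without the first (adjusted p = 0.0910) or second (0.09997) E11.5 array or the first (0.0555) or the third (0.0659) E16.5 array. A further Oxct1 probe rose by 0.74 (adjusted p = 0.000251), with 11.26, 11.31 and 11.45 at E16.5, against 10.49, 10.64 and 10.65 at E11.5. Acat1, the mitochondrial acetoacetyl-CoA thiolase that completes the path, gave 5.28, 5.91 and 5.83 at E16.5, against 5.29, 5.24 and 5.52 at E11.5. Its first E16.5 array was as low as the earlier stage, and the log2 change of 0.32 (95% confidence interval 0.03 to 0.62, adjusted p = 0.132) was not called.

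Splitting the interval at E14.5 gave few calls on either side. For E14.5 against E11.5, 5 members changed (8.34% of all tested genes did): 3 rose (4.28% did) and 2 fell (4.06% did), with a median member change of 0.07. Pdp1 rose by 0.54 (adjusted p = 0.00629), Idh2 by 0.55 (0.0132) and Idh3g by 0.41 (0.0349), while Pdk3 fell by 0.50 (0.0268) and Bdh1 by 0.56 (0.0176). Pdk3 and Idh3g are X-linked, and E14.5 is the stage at which Eif2s3y was not above background, whose part in these calls was not tested. Leaving out any 1 E11.5 array, or any 1 E14.5 array, ended at least 1 of these 5 calls, and the Pdp1 call alone held under each of these omissions. Idh2 gave 11.84, 11.79 and 11.98 at E14.5, against 11.49, 11.18 and 11.29 at E11.5. It had 11.74, 11.73 and 11.52 at E16.5, so its highest stage mean was that of E14.5.

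For E16.5 against E14.5, 6 members changed (9.67% of all tested genes did): 4 rose (5.16% did) and 2 fell (4.51% did), with a median member change of 0.19. Pccb rose by 0.61 (adjusted p = 0.000693), Mdh1 by 0.68 (0.0170), Bckdhb by 0.54 (0.0405) and Pcca by 0.41 (0.0366), while Pdk3 fell by 0.57 (0.0102) and Bdh1 by 0.56 (0.0170). Only the Pccb call held without each single array of these stages, although it ended with the mean of both probes (adjusted p = 0.0773). Pdk3 and Bdh1 were thus the members called on both sides of E14.5, each falling by similar amounts. Pdk3 gave 7.87, 8.14 and 7.84 at E16.5, against 8.47, 8.54 and 8.55 at E14.5, and this comparison too uses the E14.5 arrays without Eif2s3y signal. Bdh1 gave 6.64, 6.29 and 6.26 at E16.5, against 6.999, 6.882 and 6.997 at E14.5.

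Whether the later change differed from the earlier one was tested as a contrast within the same fit. Pccb alone passed: its change from E14.5 to E16.5 exceeded its change from E11.5 to E14.5 by 0.72 (SE 0.19, adjusted p = 0.0413), while 3.15% of all tested genes passed in either direction and 1.51% with the later change higher. Pccb gave 7.90, 7.76 and 7.86 at E14.5, the lowest stage, where E11.5 had 7.97, 7.84 and 8.06. The call ended without any 1 of the E14.5 arrays, the first or the third E11.5 array, the second E12.5 array or the first or second E16.5 array, with adjusted p-values of 0.0523 to 0.253. For Oxct1 the estimates were 0.01 for the later interval and 0.37 for the earlier one, and the difference was not called (adjusted p = 0.534). The further Oxct1 probe rose in both intervals, with means of 10.60 at E11.5, 10.94 at E14.5 and 11.34 at E16.5. The later and earlier changes of Pdha1 were 0.29 and 0.36, those of Pdhb 0.47 and 0.27, and those of Mdh1 0.68 and 0.40, with no difference called. The 2 sides share the E14.5 arrays, so a low or high E14.5 value moves both.

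**Figure D3:**
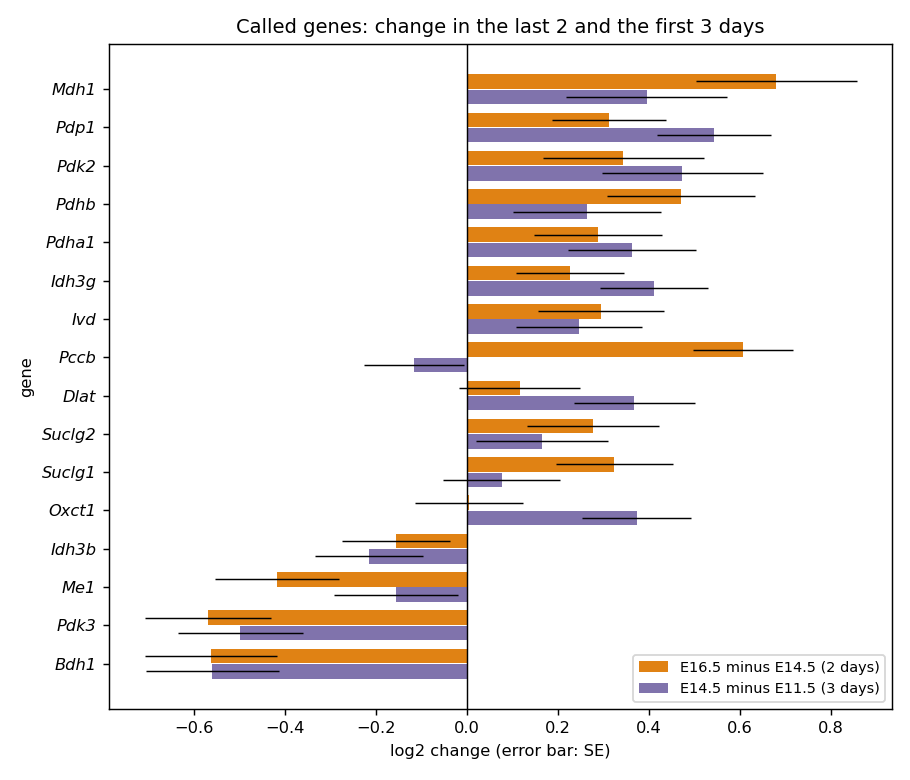
Log2 changes of the 16 called genes for E16.5 minus E14.5 and for E14.5 minus E11.5 (bars start at 0, error bars are standard errors of the fit). Pccb has bars on opposite sides of 0 (0.61 for the later interval and -0.12 for the earlier one), and Pdk3 and Bdh1 have negative bars of similar length for both.

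From one day to the next few members passed. For E12.5 against E11.5 and for E13.5 against E12.5, 0 of 36 were called, with 5 and 10 at an unadjusted p below 0.05 by limma. Of all tested genes, 2.11% were called at the E12.5 step (1.04% higher, 1.07% lower) and 2.64% at the E13.5 step (1.23% higher, 1.41% lower). For E14.5 against E13.5, Suclg2 alone was called, falling by 0.53 (adjusted p = 0.0457, where 3.84% of all tested genes were called, 1.71% higher and 2.13% lower). Suclg2 gave 9.04, 8.86 and 8.93 at E14.5, against 9.11, 9.67 and 9.63 at E13.5. The last 2 E13.5 arrays were high and the first was near the E14.5 values. Without 1 array of either of these stages other than the first of E13.5, the Suclg2 call ended (adjusted p = 0.0900 to 0.238), and it also ended without any 1 of the E11.5 arrays or the second array of E12.5, E15.5 or E16.5 (0.0504 to 0.0574). With the mean of the gene's probes the Suclg2 change was -0.19 (adjusted p = 0.610), and with no filter on dim probes the adjusted p was 0.0597. For E15.5 against E14.5, 3 members were called (4.23% of all tested genes were, 2.54% higher and 1.69% lower). X-linked Pdk3 fell by 0.57 (adjusted p = 0.0196), against the same E14.5 arrays, with 8.01, 7.98 and 7.86 at E15.5, against 8.47, 8.54 and 8.55 at E14.5. Bdh1 fell by 0.70 (adjusted p = 0.00625), with 6.41, 6.34 and 6.04 at E15.5, against 6.999, 6.882 and 6.997 at E14.5. Pccb rose by 0.48 (adjusted p = 0.0136), with 8.41, 8.33 and 8.21 at E15.5, against 7.90, 7.76 and 7.86 at E14.5. In each of the 3 the groups did not overlap, while each call ended without at least 1 array of these stages.

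For E16.5 against E15.5, 0 of 36 members were called by limma, with 1 at an unadjusted p below 0.05, and 0% of all tested genes were called. In a fit of these 2 stages with the replicate number as a block, 2 of 25403 probes were called and 0 of them belonged to a member. Pdk3 averaged 7.95 ± 0.17 at E16.5, against 7.95 ± 0.08 at E15.5, and Bdh1 averaged 6.40 ± 0.21 at E16.5, against 6.26 ± 0.20 at E15.5 (SD, n = 3 each).

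The first E13.5 array stood apart from the other E13.5 arrays in several members. It gave 7.19 for Bdh1, where the others gave 6.64 and 6.65, 10.50 for Dlst, where the others gave 10.98 and 11.03, and 10.16 for Idh3a, where the others gave 9.81 and 9.75. Without it, 4 members rose (Bcat2, Dlst, Pdk2 and Suclg2) and 2 fell (Bdh1 and Idh3a) for E13.5 against E12.5, where 4.29% of all tested genes rose and 5.03% fell in that fit. For E14.5 against E13.5, 4 then rose (Idh2, Idh3a, Idh3g and Suclg1) and 4 fell (Bcat2, Dlst, Pdk3 and Suclg2), against 5.78% and 5.74% of all tested genes. Idh3g and Pdk3 are X-linked, and Eif2s3y was above background on every E13.5 array but on none at E14.5. The part of this difference in the 2 calls was not tested.

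An F test over the 6 stages called 20 of 36 members (55.6%), while 28.9% of all tested genes passed. It called 14 of the 16 genes changed between E11.5 and E16.5, the exceptions being Idh3b and Oxct1. A dimmer probe of Oxct1 (adjusted p = 0.00131) and one of Fh1 (0.0222) passed the F test, while the probes that represent these genes did not. The 6 further genes were Idh1 (adjusted p = 0.0195), Idh2 (0.0131), Idh3a (0.0102), Bckdhb (0.00267), Bcat2 (0.0401) and Pcca (0.0219), whose stage means differed without a called change between the end stages. The Bcat2 call ended without background correction (0.0508), with no filter (0.0516) and without any 1 of the first 2 arrays of E11.5, E15.5 or E16.5, the first or the third of E12.5 or the 3 of E14.5 (0.0535 to 0.0911). The Idh3a call ended without the second (0.0777) or the third (0.0908) E13.5 array, and the Pcca call with the mean of its probes (0.395). Bckdhb, the beta subunit of the ketoacid decarboxylase, dipped in the middle, with means of 7.67 ± 0.21, 7.10 ± 0.15, 7.15 ± 0.20, 7.33 ± 0.18, 7.61 ± 0.38 and 7.86 ± 0.07 in order of embryonic day (SD, n = 3 each). Pcca had a similar course, 7.72 ± 0.16, 7.54 ± 0.13, 7.35 ± 0.15, 7.38 ± 0.06, 7.70 ± 0.06 and 7.79 ± 0.13 over the same stages. Idh3a was lowest at E13.5, at 9.91 ± 0.22, and between 10.26 ± 0.10 and 10.46 ± 0.06 at the other stages. Its dimmer probe, also called by the F test (0.0111), had no low particular to E13.5. The means of that probe were 5.97, 5.85, 5.85, 6.13, 6.42 and 6.44 in order of embryonic day. Bcat2 was highest at E13.5, 8.13 ± 0.38, where its arrays gave 7.85, 7.99 and 8.57.

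**Figure D4:**
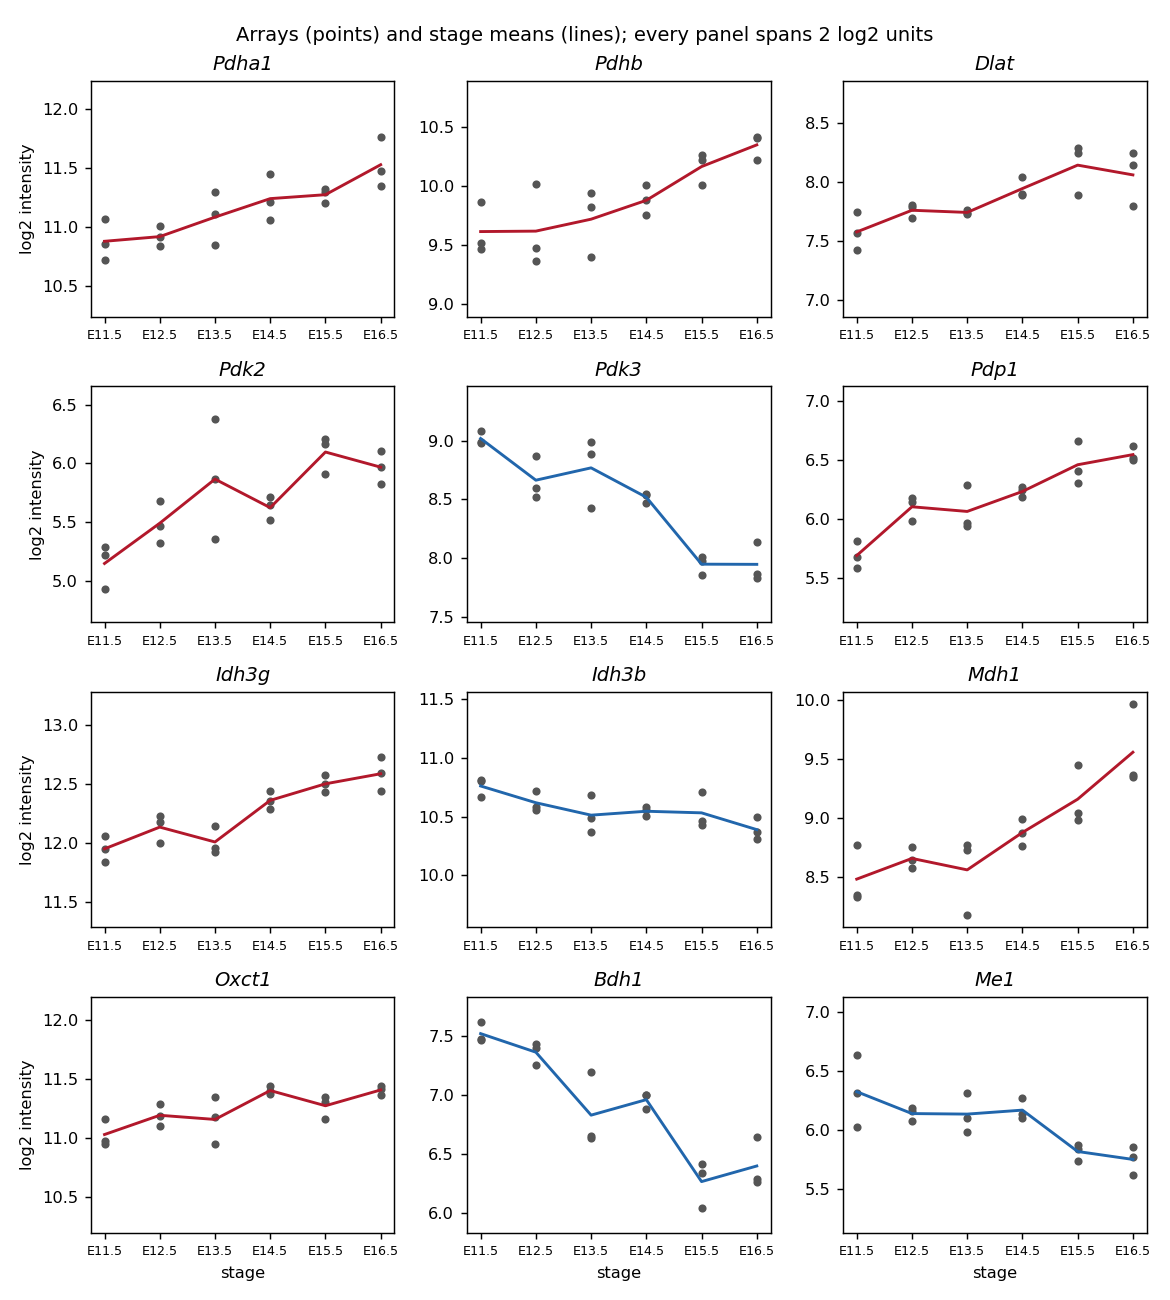
Log2 intensity (vertical axes, each spanning 2 log2 units) of 12 genes by embryonic day, with points for single arrays and lines through the stage means. Pdha1, Pdhb, Pdp1 and Mdh1 end above where they start, Pdk3 and Bdh1 end below, and the first E13.5 array of Bdh1 lies at 7.19 above the other 2.

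Related genes outside the list were read in the same fit. Of 53 such genes of pyruvate, citrate cycle, branched-chain and ketone metabolism, 44 had a named probe and 34 were tested. Between E11.5 and E16.5, 8 rose and 8 fell, with a median log2 change of 0.05. Of all tested genes, 11.4% rose and 12.7% fell. The largest rise was in Pdk4, a further pyruvate dehydrogenase kinase, with 9.24, 8.79 and 8.40 at E16.5, against 7.28, 7.10 and 7.14 at E11.5. All E16.5 arrays were more than 1 log2 unit above the E11.5 arrays, though spread among themselves (log2 change 1.63, SE 0.17, 3.10-fold higher, adjusted p = 6.20e-08). The kinases of the complex thus read 1.63 for Pdk4, 0.82 for Pdk2, 0.26 for Pdk1 (not called) and -1.07 for Pdk3 as log2 changes. Pdp2, the other phosphatase, fell by 0.51 (adjusted p = 0.0281), with 8.99, 8.59 and 8.12 at E16.5, against 9.13, 9.11 and 8.998 at E11.5, opposite to Pdp1.

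Bcat1, the cytosolic branched-chain aminotransferase, fell most, with 5.57, 5.60 and 5.67 at E16.5, against 7.15, 7.11 and 7.23 at E11.5. Both stages were tight and well apart (log2 change -1.55, SE 0.11, 2.93-fold lower, adjusted p = 1.61e-10), while its mitochondrial counterpart Bcat2 was not called. Further down the branched-chain and propionate path, Mcee, the methylmalonyl-CoA epimerase that follows propionyl-CoA carboxylase, rose by 0.81 (adjusted p = 0.000299), Aldh6a1 of valine breakdown by 0.66 (0.000566) and Acadsb, a short branched-chain acyl-CoA dehydrogenase, by 0.54 (0.0254). Auh, the methylglutaconyl-CoA hydratase of leucine breakdown, fell by 0.79 (adjusted p = 7.68e-05), to values just above background at E16.5. Sdhb and Sdhd, subunits of succinate dehydrogenase, rose by 0.59 (adjusted p = 0.000424) and 0.60 (0.00423). Me2, a mitochondrial malic enzyme, fell by 0.92 (adjusted p = 0.000832), as did its cytosolic relative Me1. Acly, which cleaves citrate in the cytosol for lipid synthesis, fell by 0.75 (adjusted p = 6.34e-05), and Slc16a3, a monocarboxylate transporter that exports lactate, by 0.64 (0.000378). A further 4 genes of this list passed the test and 18 did not.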

How the data were processed

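RNA of sorted cells was hybridised to Illumina mouse bead arrays, 18 in all, 3 for each of 6 stages. The deposited values are linear intensities per probe, which the authors had normalized between arrays: the sorted values of any array pair differ by at most 0.0874%. The submitters' processing notes name GenomeStudio 2011.1, without settings. A second table of 36 columns was not used because its column names match no sample label, so no detection p-values entered. The normexp method of limma 3.58.1, run in R 4.3.3 with an offset of 16, removed background from the deposited intensities, which were then taken to log2 with no further normalization. A probe was kept if its deposited intensity exceeded 105.388 (the mode of the intensities plus 1.64 SD of the values below it) on at least 3 of the 18 arrays, which left 25403 of 45281 probes (56.1%). limma's lmFit and eBayes were fitted to all 18 arrays with a coefficient per stage, and p-values were adjusted by Benjamini-Hochberg over the 25403 probes, with a threshold of 0.05. Probes were named from the platform annotation, and a gene is represented by its brightest kept probe. Intervals are at 95%. The code was tested on simulated data.

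The members and lists were chosen with earlier results of these data known. All 38 members may be named, and of the related genes the 12 with the largest called change. Motifs were searched as written on both strands. Samples share replicate numbers across stages. The deviations of same-numbered arrays from their stage means were correlated. Among the comparisons used, only E16.5 with E15.5 gave over 0.1 for each pair (lowest 0.19), and the numbers were taken as pairing only in that step. For E16.5 with E11.5 the correlations were 0.0867, 0.145 and 0.0263. Each E16.5 array still correlated best with the E11.5 array of its own number. The same held for E14.5 with E11.5 and with E13.5, for E15.5 with E14.5 and for E16.5 with E14.5. Alternatives covered the background correction, the filter, array weights, the replicate block, the mean of a gene's probes and leaving out arrays. The exclusion of the first E12.5 and E13.5 arrays, the exclusion of E14.5, median centring and the blocked 2-stage fit were chosen after seeing the data.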

Additional observations from a re-analysis of the deposited data

Results flagged for a closer look

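Pccb, a subunit of propionyl-CoA carboxylase, was the member that passed the test of the later against the earlier change. That is 1 of 36 members (2.78%), against 3.15% of all tested genes. Its log2 change from E14.5 to E16.5 was 0.61 and that from E11.5 to E14.5 was -0.12, and the contrast of the later minus the earlier change was 0.72 (limma, SE 0.19, adjusted p = 0.0413). The 3 arrays of E16.5 gave 8.50, 8.43 and 8.41, those of E14.5 gave 7.90, 7.76 and 7.86, and those of E11.5 gave 7.97, 7.84 and 8.06. With the mean of both Pccb probes the adjusted p was 0.446, and with no filter on dim probes it was 0.0796. The call also ended under several omissions of a single array (adjusted p = 0.0523 to 0.253). The further, dimmer Pccb probe averaged 6.67 at E16.5, 6.68 at E14.5 and 6.66 at E11.5.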

How the results depend on the processing

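Of the 16 members called for E16.5 against E11.5, 9 kept their call under every alternative run (Pdha1, Pdhb, Pdk2, Pdk3, Pdp1, Idh3g, Mdh1, Me1 and Bdh1) and 7 lost it under at least 1. Without background correction the changes of Pdk2, Pdp1, Me1 and Bdh1 shrank by over 1.5 times and stayed called. The counts ranged from 7 (without the second E11.5 array) to 13 rises and from 3 to 4 falls over single-array omissions, with 16 rises under array weights, and the median from 0.24 to 0.31. Shares of all tested genes were not computed under the alternatives, apart from the steps into and out of E13.5 without its first array. A higher count in this section is therefore not read as more change in the members. Beyond array omissions, calls were lost for Idh3b with no filter (adjusted p = 0.0532), with the mean of probes (0.0810) and in a fit of only these 2 stages (0.0562), for Oxct1 in that fit (0.0509), and with the mean of probes for Pccb (0.0888) and Suclg2 (0.0679). With the first arrays of E12.5 and E13.5 excluded 13 rose and 4 fell, without E14.5 12 rose and 4 fell, and with arrays centred on their medians 12 rose and 4 fell. The replicate numbers were not taken as pairing E16.5 with E11.5, although the deviations of each E16.5 array correlated best with the same-numbered E11.5 array. With the replicate block 13 rose, 4 fell, and 22 members passed the F test, against 20 without it (17 to 22 over omissions). F calls also ended for Ivd without the second or the third E11.5 array, any E15.5 array or the third E16.5 array (0.0506 to 0.117), for Dlat without the second E11.5 array (0.0539), and with the mean of probes for Pccb (0.134) and Suclg2 (0.238). For E14.5 against E11.5, rises were 5 with no background correction and 7 with array weights, and over omissions 1 (without the second E11.5 or the third E14.5 array) to 4 rises and 0 to 2 falls, with 0 without the third E11.5 array or the second or the third E14.5 array and 1 without any other array of these stages. For E16.5 against E14.5, rises were 2 with no filter and 7 with array weights, and over omissions 1 (without the first or the third E14.5 array or the third E16.5 array) to 5 rises, 2 without the second E16.5 array, and 0 (without the third E16.5 array) to 3 falls, with 1 without the first or the third E14.5 array or the second E16.5 array. The contrast of later minus earlier change had 2 higher members with no background correction, an offset of 50, a filter of 9 arrays, the replicate block or array weights, and 0 with no filter or the mean of probes. It had 1 lower member with array weights, and 0 to 2 higher over omissions, with 2 without the first E13.5 array. Over the 5 daily steps, rises were 4 with no background correction, 6 with an offset of 50, 2 with the 9-array filter, 3 with the block, 8 with array weights and 0 with the mean of probes, and 0 to 9 over omissions. Falls were 6, 6, 5, 6 and 7 under the first 5 of these settings in that order, and 1 to 8 over omissions, with 9 rises and 8 falls without the first E13.5 array. Only uncalled members changed sign over the whole interval: Dbt (-0.23 to 0.066 over omissions, above 0 without the first E11.5 or the third E16.5 array), Dld (-0.13 with array weights and -0.26 to 0.26 over omissions, below 0 without the third E11.5 or the third E16.5 array), Dlst (-0.0014 with the mean of probes), Ogdh (-0.0017 without the second E16.5 array), Pcca (-0.0041, without the third E16.5 array, to 0.16 over omissions), Pcx (-0.28 to 0.0024, without the first E16.5 array) and Sucla2 (-0.16 with array weights, and -0.21, without the third E16.5 array, to 0.27). The cause of these shifts was not tested. Signal near background limits Sucla2, Pcx, Pdk2 and Acat1.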
